A study of Homo sapiens with 4 samples.

Results

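HSP70 and HSP110 genes encode the chaperones that bind unfolded protein chains in the cytosol and in mitochondria. They were followed here after 4 h of AC-1041 in K562 cells. The rows of the arrays whose gene name was HSPA1A, HSPA1B, HSPA1L, HSPA2, HSPA4, HSPA4L, HSPA6, HSPA8, HSPA9 or HSPH1 were taken, which leaves out HSPA5, the HSP70 of the endoplasmic reticulum. Of these 10 genes, 9 had a row, each with 1 probe, among 14267 genes and 14297 gene probes. HSPA1B had no row under its own name. The transcripts listed for the HSPA1A probe included those of HSPA1B, so its signal can come from both genes. The HSPA2 probe was not well above background in either channel on any array.

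K562 is a human erythroleukemia cell line, and AC-1041 is an analog of thalidomide. On each of 4 two-colour Agilent arrays, RNA of treated cells was hybridised together with RNA of control cells, which the labels call untreated and the methods of the study a DMSO control. Arrays 1 and 2 had the treated RNA in the dye Cy5, and arrays 3 and 4 had it in Cy3. The labels give no dose, and the study's text gives more than one, so the dose is not stated here. Each array was counted as a replicate (n = 4). According to the methods, treated and control samples were each collected 4 times, without a statement that these were separate cultures or of which went on which array, so the errors and p-values measure the spread between these arrays. All results are of 1 cell line at 1 time, in RNA of whole cultures, in which a change in some of the cells and a smaller change in all of them cannot be told apart.

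An HSP70 protein holds a client chain in its substrate domain while its ATPase domain turns over ATP. J-domain proteins bring clients and start hydrolysis, and nucleotide exchange factors, among them the HSP110 proteins and the BAG family, release ADP so that the client can leave. When unfolded protein accumulates, heat shock factor 1 (HSF1) binds heat shock elements, which are inverted repeats of the letters GAA, in the promoters of several of these genes. The inducible HSP70 genes HSPA1A and HSPA1B are among the best known HSF1 targets, while HSPA8 is the abundant HSP70 of unstressed cells.

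The promoters are shown because the members differ in the heat shock element letters that they carry. The 250 bases before the transcription start were read from RefSeq on GRCh38.p14, with each match to GAANNTTC or TTCNNGAA (both strands searched, overlapping matches kept) in capitals. The windows of the inducible pair HSPA1A (chr6:31815293-31815542, plus strand) and HSPA1B (chr6:31827488-31827737, plus strand), of HSPA6 (chr1:161524290-161524539, plus strand), of HSPA8 (chr11:123062137-123062386, minus strand) and of HSPH1 (chr13:31162389-31162638, minus strand) read as follows.
HSPA1A: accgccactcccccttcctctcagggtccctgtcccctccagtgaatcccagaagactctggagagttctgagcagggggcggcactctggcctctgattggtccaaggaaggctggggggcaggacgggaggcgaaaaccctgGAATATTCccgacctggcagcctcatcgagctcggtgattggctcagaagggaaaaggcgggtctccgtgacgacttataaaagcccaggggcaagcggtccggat
HSPA1B: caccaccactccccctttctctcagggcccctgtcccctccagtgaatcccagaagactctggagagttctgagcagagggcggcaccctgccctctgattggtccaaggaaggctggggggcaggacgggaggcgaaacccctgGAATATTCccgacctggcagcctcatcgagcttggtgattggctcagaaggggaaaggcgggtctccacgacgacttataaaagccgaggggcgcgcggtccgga
HSPA6: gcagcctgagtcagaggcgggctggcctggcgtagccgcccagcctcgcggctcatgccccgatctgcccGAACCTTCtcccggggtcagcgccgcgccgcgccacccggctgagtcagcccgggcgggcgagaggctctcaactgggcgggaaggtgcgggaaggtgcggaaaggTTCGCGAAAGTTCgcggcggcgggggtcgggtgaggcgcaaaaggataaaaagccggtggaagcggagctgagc
HSPA8: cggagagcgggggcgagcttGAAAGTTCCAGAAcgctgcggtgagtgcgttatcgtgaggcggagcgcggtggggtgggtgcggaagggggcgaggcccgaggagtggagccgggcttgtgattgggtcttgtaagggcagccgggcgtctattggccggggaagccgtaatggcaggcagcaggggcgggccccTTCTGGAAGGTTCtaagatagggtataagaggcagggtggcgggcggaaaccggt
HSPH1: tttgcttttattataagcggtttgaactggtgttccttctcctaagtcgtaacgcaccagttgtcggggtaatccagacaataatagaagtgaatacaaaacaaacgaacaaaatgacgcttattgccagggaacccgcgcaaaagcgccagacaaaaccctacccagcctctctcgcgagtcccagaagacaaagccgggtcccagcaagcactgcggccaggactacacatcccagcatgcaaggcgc
The HSPA1A and HSPA1B windows were 94.4% identical (235 of 249 aligned bases). Both held 1 match, GAATATTC, at positions -106 to -99 from the start of HSPA1A and -105 to -98 from that of HSPA1B. HSPA1L is transcribed away from HSPA1A from a start 260 bases off. Its window shared 241 bases with that of HSPA1A and held the same match. The HSPA6 window held 3 matches and the HSPA8 window 4. No match was found in the windows of HSPH1, HSPA4, HSPA9 and HSPA2, and for HSPA4L there was 1 match in the second of its 3 windows. Hence 6 of the 10 genes, which had 12 windows between them, had a match in some window. A match was found in 11.6% of all 35116 windows listed by RefSeq. That share is per window, so it cannot be set directly against a count of genes. The matches of HSPA1A, HSPA1L and HSPA1B are also not separate cases, since these windows overlap or are nearly identical. Three-unit runs, in which matches overlap to give 3 alternating repeats, occurred once in HSPA6 and at 2 places in HSPA8, against 0.441% of all windows. These matches describe letters in the sequence, and the arrays did not measure binding of HSF1.

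Every value below is a log2 ratio of treated over control, so that 1 is a doubling, from background-corrected and loess-normalized intensities. A probe was tested with limma (treatment and dye as terms, Benjamini-Hochberg adjustment over 8852 probes) and called at an adjusted p under 0.05. Of the 8852 probes, 5156 had a dye term past the same threshold. Across probes, the ratios of arrays 1 and 2 had a correlation of 0.81 and those of arrays 3 and 4 of 0.94, whereas pairs with opposite dyes had correlations from -0.29 to -0.12. The dye term absorbs what the orientations do not share. The standard errors (SE) and adjusted p-values therefore rest on how far arrays with the same dyes differ. For these, limma also draws the variance of each probe towards a value shared by all probes. An SD is of the probe alone and covers all arrays used. Negative control spots varied more on arrays 1 and 2 (SD from 226 to 308) than on arrays 3 and 4 (SD from 27.8 to 40.5), so that these 2 differences between the arrays, of dye and of noise, cannot be told apart. Of 9 erythroid markers on the array, 7 were well above background on all 4 arrays in each channel, 1 was called higher and 4 lower. Of 8 markers of other cell types, 4 were above background on no array. The other markers included EPCAM and KRT19, which were above background throughout and called lower.

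Of the 9 probes, 7 were tested, 6 were called higher in treated cells and 0 lower, all 7 fitted ratios being above 0. Over all probes tested, 24.3% were called higher and 13.0% lower (2155 and 1152). With median centring in place of loess the split over all probes was 2364 higher and 596 lower, and the 6 members called higher then included HSPA6 in place of HSPA9. Each tested member was well above background in both channels on at least 3 arrays. The median log2 ratio of the 7 was 0.53, against 0.017 over all probes tested. By the mean log2 ratio over the arrays used, HSPH1, HSPA4L, HSPA1L and the untested HSPA1A were over 1. HSPA8, HSPA4, HSPA9 and HSPA6 were under 1 by the same measure. Single arrays crossed this split, with HSPA4L at 0.67 on array 1, HSPA8 at 1.18 on array 2 and HSPA9 at 1.02 on arrays 3 and 4. HSPH1, HSPA4L, HSPA1L and HSPA4, with all spots unmarked, lay above 0 on each of the 4 arrays, as did 16.7% of the 7991 probes with 4 unmarked spots.

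**Figure D1:**
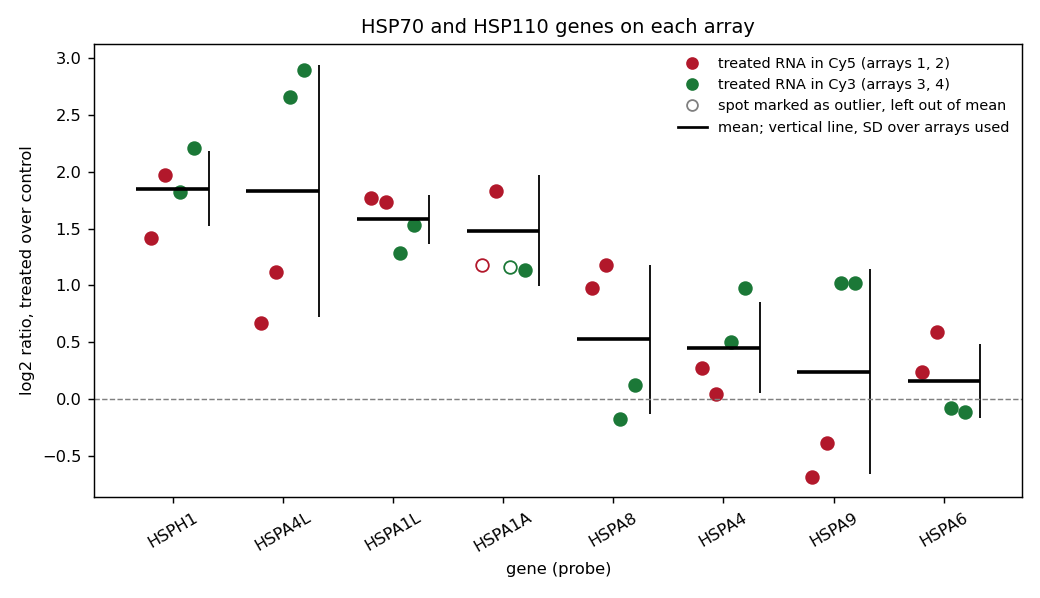
Log2 ratio of treated over control (vertical axis) of the 8 HSP70 and HSP110 probes above background, with 1 point per array coloured by the dye of the treated RNA, the mean as a bar and the SD beside it. The points of HSPH1, HSPA1L and HSPA1A all lie above 1. Those of HSPA4L, HSPA8 and HSPA9 separate most widely by dye, and those of HSPA4 and HSPA6 separate less.

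HSPH1 encodes the stress-inducible HSP110, which acts on HSP70 as an exchange factor and holds unfolded chains by itself. Its probe lies at chr13:30608796-30608855 (hg18, minus strand). The normalized intensity in treated cells was 81857, 86986, 130072 and 156812 on arrays 1 to 4, against 30716, 22179, 36831 and 33950 in control cells. The treated and control intensities did not overlap. How many of all probes were likewise free of overlap was not counted, for HSPH1 or for the members below. The log2 ratio was 1.41, 1.97, 1.82 and 2.21, with a mean of 1.85 ± 0.33 (SD, n = 4 arrays), which is 3.61-fold (limma SE 0.104, adjusted p = 1.3e-05). It ranked 11 from the top of the 8852 probes. The mean was 1.69 where Cy5 marked the treated RNA and 2.01 where Cy3 did, and the dye term of this probe had an adjusted p of 0.213 in limma.

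HSPA4L and HSPA4 encode the other two HSP110 proteins of the cytosol, of which HSPA4 is made in most tissues and HSPA4L is best known from testis. HSPA4L (chr4:128973700-128973759, hg18, plus strand) had intensities of 6786, 9835, 14972 and 19051 in treated cells, against 4268, 4542, 2369 and 2549 in control cells. All 4 treated values lay above all 4 control values, but the distance between them depended on the dyes. Its log2 ratios were 0.67 and 1.11 on the arrays with Cy5-labelled treated RNA, and 2.66 and 2.90 on those with the dyes swapped. The mean was 1.84 ± 1.11 (SD, n = 4 arrays), a 3.57-fold difference (limma SE 0.089, adjusted p = 7.0e-06), made up of 1.86-fold in one orientation and 6.87-fold in the other. The dye term was itself past the threshold for HSPA4L (limma adjusted p = 7.5e-05). Without a dye term, so that all 4 arrays set the error, HSPA4L was not called (adjusted p = 0.128 in limma).

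HSPA4 rose less. Its probe spans 2166 bases of hg18 (chr5:132463227-132465392, plus strand) with a sequence of 60 bases, so it crosses an intron. Treated intensities were 32515, 25772, 29143 and 41206, and control intensities 26885, 25070, 20543 and 20902. The ranges overlapped between arrays, while within each array the treated channel was the higher. Log2 ratios were 0.27, 0.04, 0.50 and 0.98, with a mean of 0.45 ± 0.40 (SD, n = 4 arrays) or 1.37-fold (limma SE 0.091, adjusted p = 0.0056). Without array 4 the fitted log2 ratio, balanced over the dyes, was 0.33 and the call was lost (adjusted p = 0.075 in limma), as it was without the dye term (adjusted p = 0.347). On every array HSPH1 had the larger ratio, by 1.14, 1.93, 1.32 and 1.23, a mean difference from HSPA4 of 1.40 ± 0.36 (SD, n = 4 arrays). HSPA4L exceeded HSPA4 by 1.39 ± 0.81. Both differences had the smallest p that an exact two-sided sign-flip permutation test over 4 arrays can give, 0.125, or 0.5625 after adjustment over the 9 pairs of members compared. The difference between HSPH1 and HSPA4L was 0.02 ± 0.91, well inside its spread (exact permutation p = 0.875).

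The HSPA1 genes follow. The probes of HSPA1A and HSPA1L, and that of HSPA6 described further on, are shown because HSP70 genes are alike in their coding parts, so that what each probe can bind matters for its value. Their letters on the arrays are these.
HSPA1A probe: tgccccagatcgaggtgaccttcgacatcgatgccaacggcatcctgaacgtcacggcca
HSPA1L probe: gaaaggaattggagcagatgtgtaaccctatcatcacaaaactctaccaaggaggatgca
HSPA6 probe: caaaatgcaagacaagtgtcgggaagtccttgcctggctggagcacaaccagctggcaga
Hybridisation of other HSP70 transcripts to these probes was not tested.

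HSPA1A, with HSPA1B, is the inducible HSP70. Its probe (chr6:31892924-31892983, hg18, plus strand) gave treated intensities of 173078, 201606, 132605 and 165250 on arrays 1 to 4, against control intensities of 76552, 56773, 59159 and 75123. Every treated intensity was above every control intensity. Feature Extraction had marked the spots on arrays 1 and 3 as outliers, which left 1 array of each orientation and no test with a dye term. On the unmarked arrays 2 and 4 the log2 ratio was 1.83 and 1.14, with a mean of 1.48 ± 0.49 (SD, n = 2 arrays) or 2.79-fold. Over all 4 spots, at 1.18, 1.83, 1.16 and 1.14, the mean was 1.33 ± 0.33. With marked spots kept for all probes, limma gave a log2 ratio of 1.25 (SE 0.150, adjusted p = 0.0015), in a fit that called 21.1% of 9191 probes higher. Without the dye term, on the unmarked arrays alone, it was not called (adjusted p = 0.132).

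HSPA1L, an HSP70 known mainly from testis that lies head to head with HSPA1A, had a probe at chr6:31885877-31885936 (hg18, minus strand). Its intensities were 4093, 5475, 3571 and 5923 in treated cells and 1203, 1646, 1462 and 2042 in control cells, with no overlap. The control channel was not well above background on array 2. Log2 ratios of 1.77, 1.73, 1.29 and 1.54 gave the narrowest spread of the tested members, with a mean of 1.58 ± 0.22 (SD, n = 4 arrays), which is 2.99-fold (limma SE 0.070, adjusted p = 6.6e-06). HSPA1L exceeded HSPA1A by 0.15 ± 0.35 on the 2 arrays with both probes unmarked, a difference inside its spread. Without the dye term 0.582% of 8937 probes were called higher, and HSPH1 and HSPA1L were the members among them (limma adjusted p = 0.027 each).

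**Figure D2:**
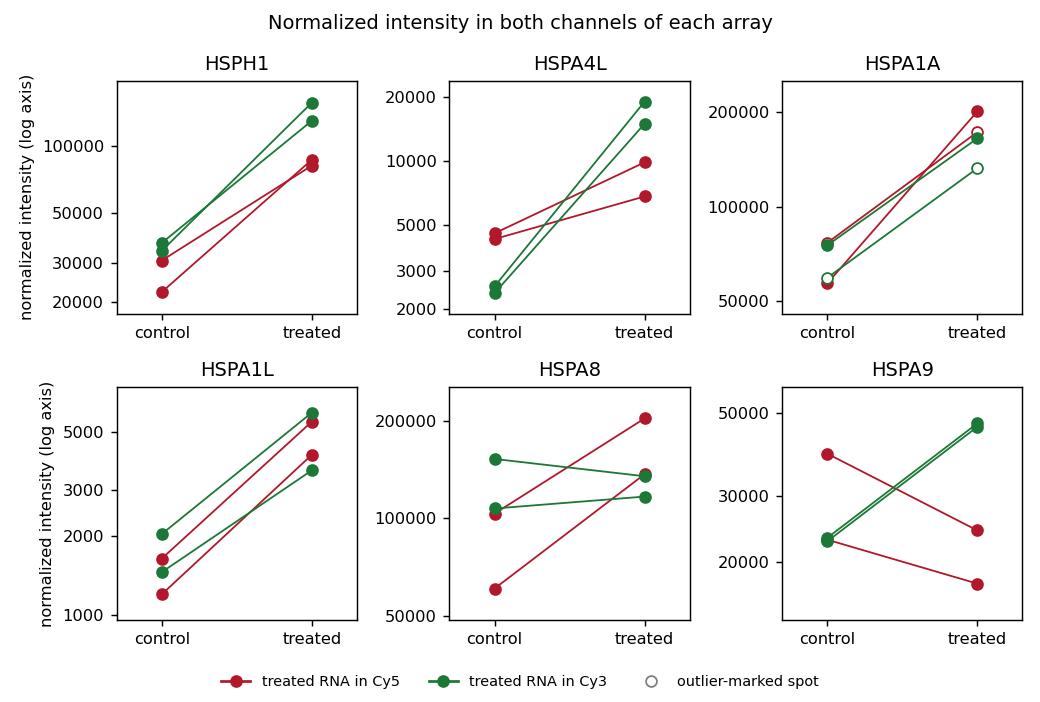
Normalized intensity (log axis, with its own range in each panel) of control and treated RNA for 6 genes, with 1 line per array and open points for spots marked as outliers. All lines of HSPH1, HSPA4L, HSPA1A and HSPA1L rise from control to treated, while those of HSPA8 rise clearly on arrays 1 and 2 only and those of HSPA9 on arrays 3 and 4 only.

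HSPA6 encodes a strictly inducible HSP70 of human cells. It was tested and not called. The intensity of its probe (chr1:159762782-159762841, hg18, plus strand) was 2188, 2767, 1294 and 1668 in treated cells and 1858, 1834, 1367 and 1804 in control cells, the latter not well above background on array 2. The groups overlapped. Log2 ratios were 0.24 and 0.59 on arrays 1 and 2 (treated RNA in Cy5) but -0.08 and -0.11 on arrays 3 and 4, and the mean of 0.16 ± 0.33 (SD, n = 4 arrays) did not pass the test (limma SE 0.077, adjusted p = 0.139). It passed with median centring (0.28, adjusted p = 0.035 in limma) and without array 1 (0.25, adjusted p = 0.011), while without array 2 the fitted ratio was 0.070 (adjusted p = 0.47). HSPA7, a transcribed pseudogene on the same chromosome that resembles HSPA6, has no value here, and its share in the signal was not tested.

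HSPA8, the constitutive HSP70 that strips clathrin from vesicles and guides proteins to lysosomes, gave a result that depended on the dyes. Its probe (chr11:122433484-122433543, hg18, minus strand) had treated intensities of 204344, 137226, 135202 and 116928 and control intensities of 103547, 60610, 152980 and 107390. The ranges overlapped. The log2 ratio was 0.98 and 1.18 on arrays 1 and 2, but -0.18 and 0.12 on arrays 3 and 4, which had the dyes swapped. The mean was 0.53 ± 0.66 (SD, n = 4 arrays), or 1.44-fold, and limma called it higher (SE 0.077, adjusted p = 0.0012). The call therefore averaged 2.11-fold in one orientation and 0.981-fold in the other. It was lost without the dye term (adjusted p = 0.451 in limma) and, at a log2 ratio of 0.45, with the signals as Feature Extraction had processed them (adjusted p = 0.065) and with the series table (adjusted p = 0.072). With median centring the ratio was 0.29 (adjusted p = 0.014 in limma). The RefSeq table lists 20 pseudogenes of HSPA8, and their part in its signal was not tested.

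HSPA9 encodes mortalin, the HSP70 of the mitochondrial matrix that pulls imported proteins across the inner membrane. Its probe (chr5:137919403-137919462, hg18, minus strand) had treated intensities of 24281, 17488, 46050 and 47030 against control intensities of 38999, 22936, 22713 and 23204. The direction turned with the dyes. The log2 ratio was -0.68 and -0.39 on arrays 1 and 2, and 1.02 on both arrays with the treated RNA in Cy3. The mean of 0.24 ± 0.91 (SD, n = 4 arrays) was called higher in limma (SE 0.073, adjusted p = 0.031), although its SD was larger than the mean. The call was lost in 9 of 17 other settings, among them the fits without array 2, 3 or 4 (limma adjusted p from 0.088 to 0.180).

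HSPA2, the HSP70 of spermatogenic cells, had intensities from 118 to 513 in treated and from 143 to 492 in control cells at chr14:64079291-64079350 (hg18, plus strand). No fold is given for it.

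**Figure D3:**
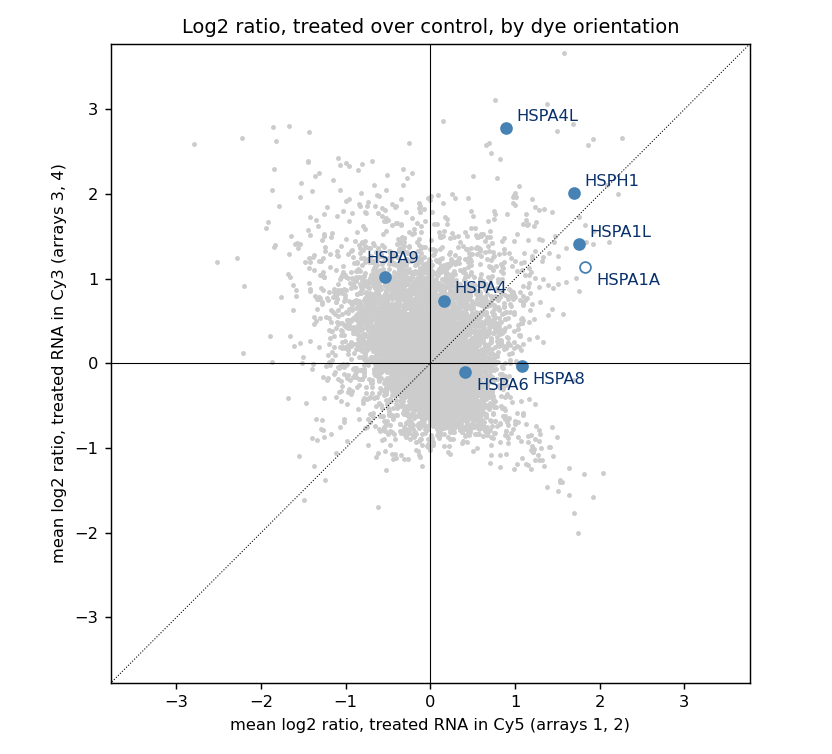
Mean log2 ratio of treated over control on arrays 1 and 2 (horizontal, treated RNA in Cy5) and on arrays 3 and 4 (vertical, in Cy3) for the tested probes in grey and 8 member probes in blue, with an open point for HSPA1A, which had 1 unmarked spot in each orientation. HSPH1 and HSPA1L lie nearest to the dotted line of equal ratios. HSPA4L, HSPA4 and HSPA9 lie above it, and HSPA1A (1.83 in Cy5, 1.14 in Cy3), HSPA8 and HSPA6 below it. The signs are opposite for HSPA9 (-0.54 in Cy5, 1.02 in Cy3), HSPA6 (0.41 and -0.10) and HSPA8 (1.08 and -0.03).

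Of the 7 tested members, 5 had a dye term past the threshold, against 5156 of all 8852 probes tested. The 5 were HSPA4L, HSPA9, HSPA8, HSPA4 and HSPA6. HSPA4L, HSPA9 and HSPA4 had the larger ratio with the treated RNA in Cy3, and HSPA8 and HSPA6 with it in Cy5. In the order of mean ratios (HSPH1, HSPA4L, HSPA1L, HSPA1A, HSPA8, HSPA4, HSPA9, HSPA6) the mean differences between neighbours lay inside their SD, except for the step from HSPA1A to HSPA8. The exact permutation test could not have passed 0.05 for any of them. This step, on the 2 arrays where both could be compared, was 0.83 ± 0.26, with a p of 0.5, the smallest that an exact test over 2 arrays can give.

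**Figure D4:**
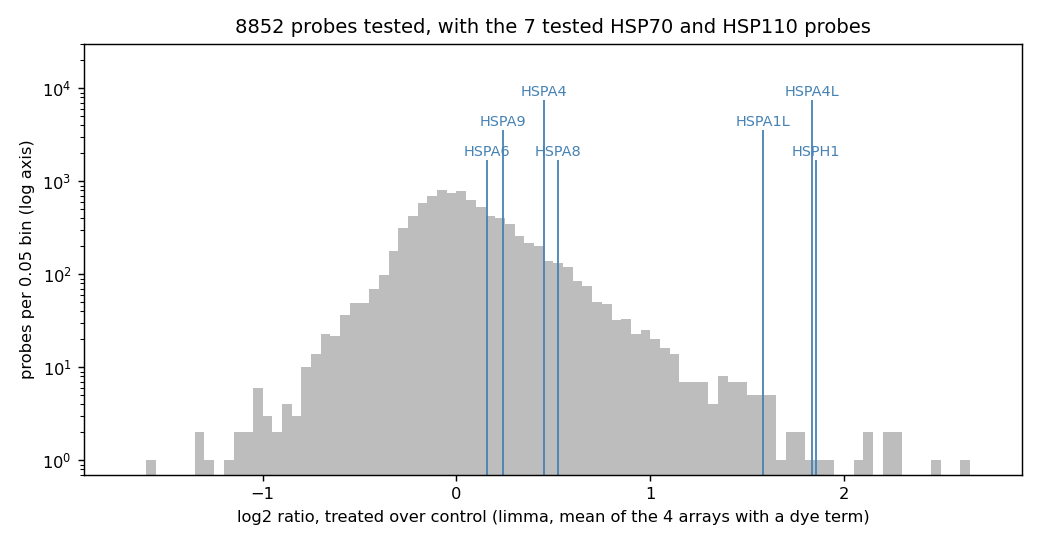
Number of probes (log axis) by limma log2 ratio of treated over control in bins of 0.05, for all 8852 tested probes in grey, with the 7 tested HSP70 and HSP110 probes as blue lines. HSPH1, HSPA4L and HSPA1L stand in the upper tail at ranks 11, 12 and 24 from the top. HSPA8 and HSPA4 follow at ranks 673 and 894, and HSPA9 and HSPA6 at ranks 1988 and 2653.

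The probes with ratios most like those of a called member over the 4 arrays were found by root mean square distance among 4828 probes that were above background on every array in each channel. For HSPH1 they were PKNOX1 (distance 0.287 on the log2 scale) and GDF15 (0.298), and for HSPA1L they were MAFF (0.203) and CEBPG (0.215). HSPA4L had no close neighbour, the nearest being TncRNA (0.381) and DNAJB4 (0.410). DNAJB4, a J-domain partner of HSP70, had log2 ratios of 1.26, 1.50, 2.89 and 3.24. HSPA4 lay nearest to RTCD1 (0.112) and PSPH (0.120). The nearest to HSPA8 were CRYAB (0.047), a small heat shock protein, and CDKN2A (0.131). The nearest to HSPA9 were ESCO1 (0.043) and NARS1 (0.056). These distances include what the dyes contribute to each probe.

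The partners of HSP70 were taken from fixed lists. Beside the counts of each list stand the shares over all probes tested, 24.3% called higher and 13.0% lower. Of 8 tested nucleotide exchange factors other than HSP110, 3 were called higher and 1 lower, with a median of 0.11 against 0.017 over all probes. BAG3, the exchange factor that couples HSP70 to small heat shock proteins and to autophagy, had log2 ratios of 1.71, 2.16, 1.35 and 1.79 and a mean of 1.75 ± 0.33 (SD, n = 4 arrays; limma adjusted p = 1.3e-05). It was the only gene of these partner lists still called without the dye term (limma adjusted p = 0.027). The exchange factors of mitochondrial HSP70 went different ways, GRPEL2 rising by 0.88 ± 0.20 (limma adjusted p = 6.8e-05) and GRPEL1 being lower at -0.36 ± 0.28 (limma adjusted p = 0.0035). BAG2 had a mean of 0.44 ± 0.75, with negative ratios on arrays 1 and 2 and ratios over 1 on arrays 3 and 4.

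Of 7 tested J-domain partners and adaptors of cytosolic HSP70, 1 was called higher and 0 lower, with a median of 0.18. The called gene was DNAJA1 (0.35 ± 0.59, limma adjusted p = 0.0058), below 0 on arrays 1 and 2. The lowest, DNAJC7, had a log2 ratio of -0.19 (limma, unadjusted p = 0.066), so none was lower at an unadjusted p under 0.05 either. DNAJB1, the main J-domain partner of inducible HSP70, could not be tested because 2 of its spots were marked, and all 4 of its spots read 1.32, 2.34, 1.52 and 1.76. STIP1, the adaptor that joins HSP70 to HSP90, was at 0.19 ± 0.09 (limma adjusted p = 0.054).

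Of 4 heat shock factors and regulators, HSF2 was called higher (0.30 ± 0.34, limma adjusted p = 0.0084). HSF1 was at 0.15 ± 0.03 (limma adjusted p = 0.092), HSF4 and HSBP1 were at -0.02 each, and the median was 0.07. Of 11 other HSF1 target genes tested, 8 were called higher and 0 lower, against 24.3% and 13.0% of all probes. Their median was 0.44. HSP90AA1, the inducible cytosolic HSP90, had a mean of 0.90 ± 0.27 (limma adjusted p = 0.00016) and was above 0 on all 4 arrays, as were HSP90AB1 (0.39 ± 0.20), SERPINH1 (0.48 ± 0.23) and HSPD1 (0.44 ± 0.42). CHORDC1 (0.86), CRYAB (0.49) and UBB (0.38) were called as well, with signs that differed between arrays. UBB ranged from -1.43 to 2.38. HSPB1 (0.25), AHSA1 (0.22) and HSPE1 (0.21) were not called.

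Of 4 tested genes of the wider HSP70 superfamily, HSPA13 (1.20 ± 0.88, limma adjusted p = 2.2e-05) and HSPA5 (0.30 ± 0.62, limma adjusted p = 0.0090) were called higher, HSPA14 (-0.29 ± 0.22, limma adjusted p = 0.017) was called lower, and HYOU1, the HSP110 of the endoplasmic reticulum, was at -0.02 ± 0.55. The median was 0.14. HSPA5, also known as BiP, was below 0 on arrays 1 and 2 and above 0.7 on arrays 3 and 4.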

How the data were processed

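Treated and control RNA of K562 cells were compared on 4 two-colour Agilent arrays. The authors scanned the arrays in an Agilent scanner and read the images with Feature Extraction 9.5.1.1. They deposited, for both channels, the spot intensity and the local background before normalization, together with processed signals. The deposited series table holds log10 ratios, which matched the scanner files once the sign of the 2 dye-swapped arrays was turned, and so has treated cells in the numerator.

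From the intensities, background was corrected with normexp (offset 50) and each array was normalized by loess (span 0.3). Control spots and spots marked as outliers (from 1.57% to 8.08% of probes per array) were left out. Probes had to be well above background on 2 or more arrays in 1 or more channels, and were fitted with limma 3.58.1 in R 4.3.3 where both orientations had a spot and 1 of them had both. The limma step was tested on simulated data. Of 14297 probes, 12002 were named through their accession in a RefSeq table of GRCh38.p14. Probe positions are those of the files (hg18). Promoters were read from RefSeq and aligned with Biopython 1.88. Where a list gene had more than 1 probe, the brightest was used. All members, the called genes and those with a defining role in each list, and the 2 probes nearest to each called member are named, except a few that are not reported here. The members and lists were chosen with earlier results of these data known. Alternatives covered background correction, normalization, the series table, filters, marked spots, the dye term, the prior, array weights, the threshold, dye-swap pairs averaged, and leaving out each array. The number of arrays limits the precision.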

Additional observations from a re-analysis of the deposited data

How the results depend on the processing

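The number of member probes called higher, 6 of those tested, was 2 without the dye term, from 4 to 7 with each array left out and from 4 to 6 in the other settings, and no member was called lower in any of them. Over all probes, the number higher, 2155, became 1342 where all arrays had to show both channels well above background, 52 without the dye term, 1353 at an adjusted p under 0.01 and from 1008 to 2590 with each array left out. The number lower, 1152, became 596 with median centring, 4 without the dye term, 468 at the stricter threshold and from 283 to 1469 with each array left out. Among the fits that left out 1 array, both counts were lowest without array 4 and highest without array 1. In the fixed partner lists, the number higher was 1 without the dye term and from 10 to 21 with each array left out, and the number lower was 1 with that stricter filter, 0 without the dye term, 1 at the stricter threshold and from 0 to 3 with each array left out. HSPH1 (from 1.65 to 1.99 in 17 settings) and HSPA1L (from 1.52 to 1.74 in 16) were called in each. HSPA4L was called in 16 of 17, HSPA4 in 15 and HSPA8 in 14. HSPA9 was called in 8 of 17, and its adjusted p was 0.082 with marked spots kept, 0.195 with median centring, and 0.088, 0.154 and 0.180 without arrays 2, 3 and 4. The cause of these changes was not tested. Slide and scan date could not be fitted as blocks, since all arrays shared them. Each ratio compared treated and control RNA on the same array, so the fit was paired within arrays, with 1 group of ratios. Arrays averaged as dye-swap pairs gave 6 member calls in both pairings.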
